A study of Mus musculus with 26 samples.

Results

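NF-κB is a family of dimeric transcription factors built from 5 subunits, and the part of the transcriptome described here is those subunits together with the best known inhibitors of the pathway. The members are a fixed list of 10 genes out of the 35944 genes summed from the deposited transcripts: the subunit genes Nfkb1, Nfkb2, Rel, Rela and Relb, the classical inhibitors Nfkbia and Nfkbie, the atypical inhibitors Nfkbid and Nfkbiz, and the ubiquitin editor Tnfaip3. The list was not chosen on measured values, and all 10 members passed the filter on low counts.

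In resting T cells, NF-κB dimers are held in the cytoplasm by IκB proteins, and triggering of the T cell receptor and its co-receptors leads, through the IκB kinases, to destruction of the IκB and entry of the dimer into the nucleus. Nfkb1 and Nfkb2 encode long precursors that are trimmed to the DNA-binding subunits p50 and p52, whereas Rela, Rel and Relb encode the subunits that carry the activation domain. Many of the inhibitor genes are themselves NF-κB targets, so the pathway holds its own negative feedback.

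The cells were TCR Tg101 CD8+ T cells, which carry a transgenic T cell receptor taken from a single clone specific for an undefined antigen of C1498, a mouse leukemia line. The study's methods give Rag2-/- as the background to which the Tg101 mice were bred, while the labels give strain C57BL/6, genotype wild type and an age of 6 weeks for every sample. The cells were sorted by flow cytometry and profiled by low-input RNA-seq in 14 libraries. Controls were 3 spleen libraries without leukemia, 2 of them naive cells at day 0 and 1 from untreated mice at day 18. Per the study's methods, Tg101 cells were transferred into B6.SJL or C57BL/6 host mice, which received C1498 cells the following day. Its time points are given as following transfer, and the day 0 cells are labelled naive. Transfer into a host may thus also set the day 0 controls apart from the other libraries. Cells from leukemia-bearing mice came from the spleen at day 7 (early, 2 libraries) and day 14 (mid, 1 library) and from the liver at day 7 (early, 2 libraries), days 13 and 14 (mid, 3 libraries) and days 16 and 18 (late, 2 libraries). A further spleen library held undivided cells, sorted as high for the dye CTV at day 18 in leukemia-bearing mice. All controls were splenic, so liver and leukemia cannot be told apart in a comparison of liver with control, and whether libraries came from separate or pooled mice is not given in the sources used here. The p-values therefore measure the spread between these libraries.

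Depth ran from 22918996 to 71358287 estimated counts per low-input library, and each member had at least 898 counts in every library. Levels below are CPM (counts scaled to a common library total, with TMM factors) unless stated otherwise. Sample titles carry the prefix TG (1 control, 1 mid liver and 1 late liver library, named replicate 1 of its group by accession order) or XC (all others), and this title series was a term of the fit. The 8 CD8 T cell markers summed to 3960 to 9310 CPM over the libraries, with Cd3e at 701 to 1399 CPM. Against control, Cd3e (log2 difference 0.66, SE 0.19) and Cd3g (0.69, SE 0.21) were called higher in the late liver. No marker of this list was called in the mid liver. Markers of other cells moved with some groups. The summed level of 11 macrophage markers was 1233 and 175 CPM in the day 0 controls against 13.5 CPM in the day 18 control and 6.14 to 58.4 CPM in the liver libraries, and 5 erythroid markers reached 5194 and 20122 CPM in the day 0 controls against 136 CPM in the day 18 control. The 5 matched hepatocyte markers summed to 155 and 251 CPM in the TG liver libraries and 52.8 CPM in late liver replicate 2, against at most 0.844 CPM in the controls. Of the markers that could be tested, 5 of 8 macrophage and 3 of 4 erythroid genes were lower at mid (0 at late), and 3 of 4 hepatocyte genes were higher at both times. Of dendritic cell genes 2 of 4 were lower at both times, and of neutrophil genes 2 of 3 were lower at mid and 1 of 3 at late, with a summed neutrophil level of 158 and 25.2 CPM in the day 0 controls and at most 2.45 CPM in the mid and late liver. Of B cell genes 1 of 3 was lower at mid, of liver endothelium genes 1 of 3 at both times, and of natural killer cell genes 0 of 2 were called at either. Alb, the defining hepatocyte gene, was at 0 in 1 control and in undivided cells, and the macrophage gene Adgre1 was at 0 in both early liver libraries and in mid liver replicate 2. In bulk libraries, fewer cells of a type and less RNA per cell cannot be told apart.

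The question put to these genes was how the NF-κB machinery of Tg101 cells differed from that of control cells as leukemia advanced. In the mid liver, 4 of the 10 members were higher than in controls: Nfkb1, Nfkb2, Rel and Nfkbid. In the late liver 2 were higher, Nfkb1 and Nfkb2. No member was significantly lower at either time, and Rela, which encodes the p65 subunit, and Nfkbia, which encodes IκBα, did not pass the test at any time. These counts come from quasi-likelihood tests in edgeR, adjusted by Benjamini-Hochberg over 15465 genes. In the same test 29.3% of all genes were called at mid (17.5% higher and 11.8% lower) and 34.2% at late (19.9% higher and 14.3% lower). The 4 of 10 members higher at mid thus stand beside 17.5% of all genes, and the 2 of 10 at late beside 19.9%. The median log2 fold change over the members was 0.24 at mid and 0.38 at late, against -0.07 and -0.04 over all genes.

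**Figure D1:**
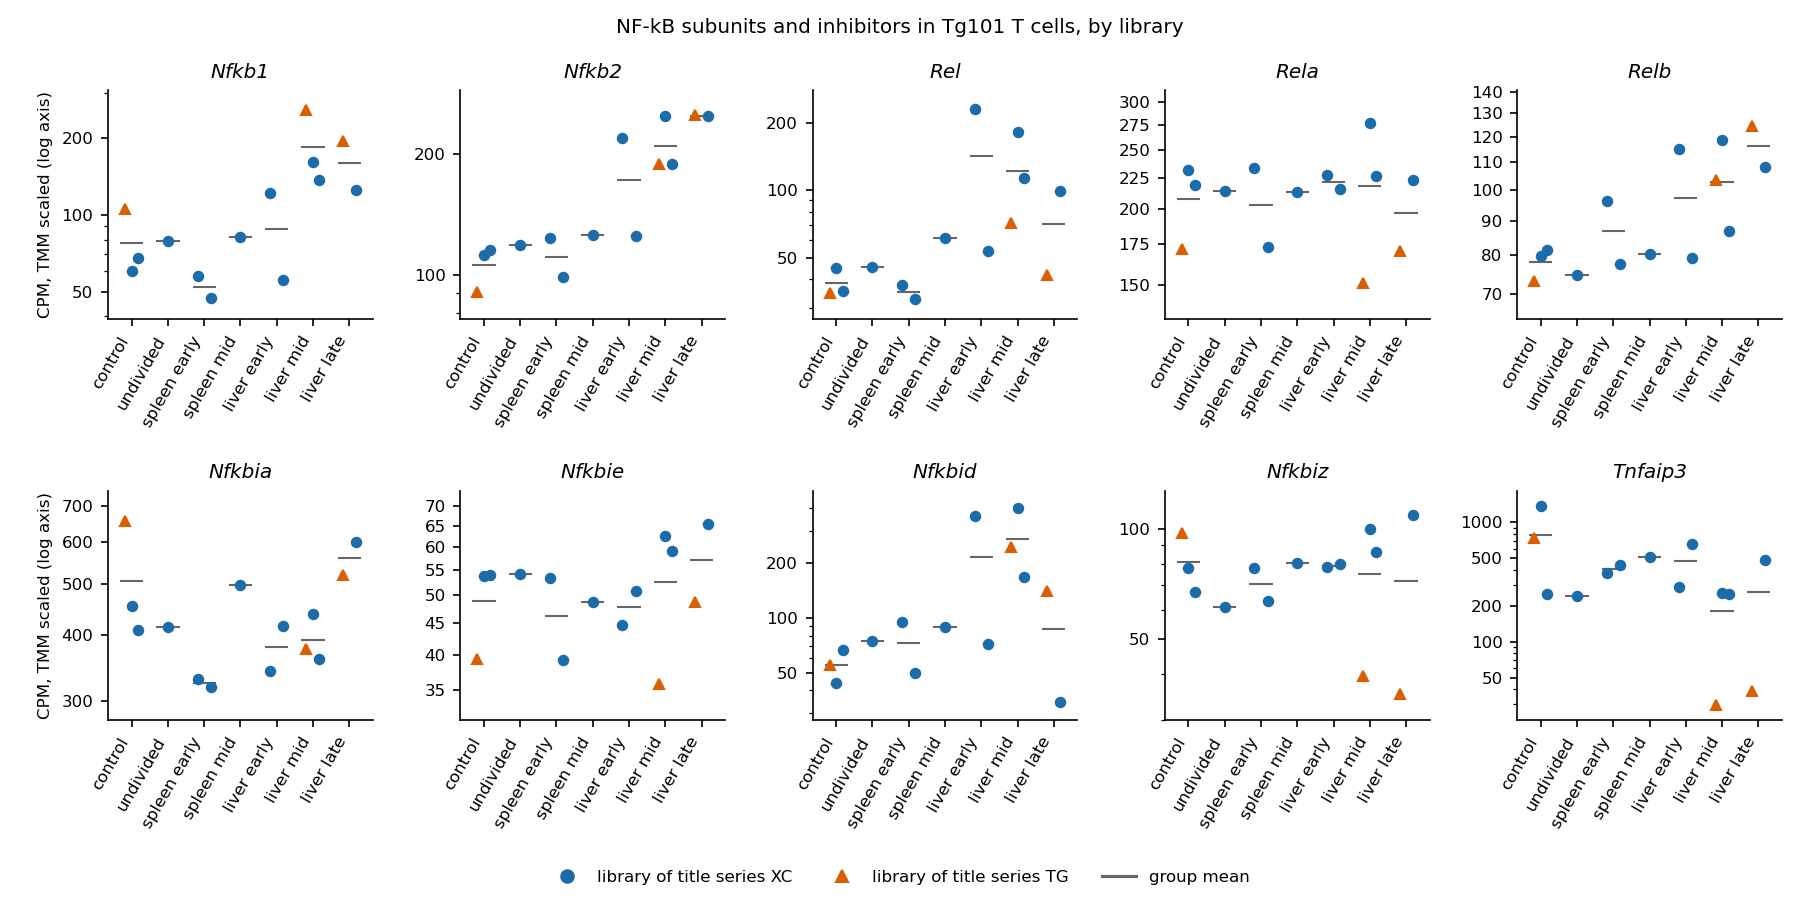
Level of each of the 10 genes (CPM scaled by TMM, log axis that differs between panels) in the 14 low-input libraries by group, with circles for title series XC, triangles for title series TG and a line at the group mean. Nfkb1 and Nfkb2 lie above all controls in the 5 mid and late liver libraries, Rela stays between 151 and 277 CPM, and Tnfaip3 falls to 29.8 and 39.1 CPM in the TG liver libraries.

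Among the precursor subunits, Nfkb2 was the most regular. Its level was 90.4, 112 and 115 CPM in the 3 controls, 189, 250.2 and 189 CPM in the mid liver, and 250.5 and 249 CPM in the late liver. All 5 mid and late liver libraries therefore lay above every control. The difference from control was 0.99 on the log2 scale at mid (SE 0.23, adjusted p = 0.0158, edgeR) and 1.28 at late (SE 0.25, adjusted p = 0.00728). Within the TG series the late level was 2.77 times the control, and within the XC series 2.19 times.

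Nfkb1, the p105 and p50 gene, read 105, 60.3 and 68.0 CPM in the controls. It stood at 257, 160.4 and 137 CPM in the mid liver and at 194 and 125 CPM in the late liver, again with no overlap. The log2 difference was 1.24 at mid (SE 0.25, adjusted p = 0.0141, edgeR) and 0.92 at late (SE 0.28, adjusted p = 0.0298). The ratio to control in the mid liver was 2.44 within the TG series and 2.32 within the XC series. These ratios are of gene sums, and the estimated transcripts differed by series. In TG, coding Nfkb1-206 was at 9.26 CPM in the control and 8.32 CPM at mid. Coding Nfkb1-203 was at 11.2 and 55.4 CPM, and Nfkb1-207, annotated for nonsense-mediated decay, at 36.7 and 134 CPM. These transcripts cover only the 3′ part of the gene. The gene starts at base 135691547 of the minus strand, Nfkb1-206 at 135667799, Nfkb1-203 at 135608270 and Nfkb1-207 at 135603796. Nfkb1-201, another coding transcript, had 0 estimated counts in the TG control and the TG mid liver library. In XC, Nfkb1-206 was at 14.9 and 14.3 CPM in the controls and 35.0 and 35.1 CPM at mid. Nfkb1-203 and Nfkb1-207 were also higher there. No test was run on transcripts.

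Rel encodes c-Rel, the subunit most closely tied to activated lymphocytes. It was at 34.7, 45.0 and 35.6 CPM in the controls and at 71.2, 182 and 113 CPM in the mid liver, so the groups did not overlap. In the late liver the values were 41.9 and 99.2 CPM, and the lower of the pair lay within the control range. The log2 difference was 1.57 at mid (SE 0.48, adjusted p = 0.0383, edgeR) and 0.87 at late (SE 0.51, adjusted p = 0.207). With the libraries of late liver and control alone in the fit, Rel passed at late (0.83, adjusted p = 0.04, edgeR), as it did with no filter on low counts (0.88, adjusted p = 0.00517). The difference between late and mid itself did not pass (-0.70, SE 0.53, adjusted p = 0.981).

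Relb encodes the subunit that pairs with p52. It was at 73.4, 79.9 and 81.5 CPM in the controls, 103, 119 and 86.8 CPM in the mid liver and 125 and 108 CPM in the late liver. The groups did not overlap, but the log2 differences of 0.40 at mid (SE 0.20, adjusted p = 0.145, edgeR) and 0.57 at late (SE 0.22, adjusted p = 0.0665) missed the threshold. Rela read 172, 232 and 219.5 CPM in the controls against 151, 277 and 227 CPM at mid and 170.5 and 223 CPM at late. The groups overlapped throughout, and the 95% interval of the Rela log2 difference ran from -0.35 to 0.44 at mid and from -0.44 to 0.45 at late.

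Per unit of transcript length, Rela was the most abundant of the 3 subunits with an activation domain and Rel the least. On the TPM scale, which corrects for transcript length and depth, Rela was at 90.0 ± 32.6 (SD, n = 3 controls), Relb at 40.4 ± 11.1 and Rel at 4.65 ± 0.864. Of the summed TPM of these 3 genes, Rel took 2.91 to 4.42% in the controls, 3.91% in undivided cells and 2.85 to 5.24% in the spleens of leukemia-bearing mice. In the mid liver its share was 8.18, 10.6 and 8.37%, above all of those. In the late liver it was 4.31 and 7.06%, and in the early liver 15.1 and 4.31%. The order of all members by mean TPM in the controls was Nfkbia, Tnfaip3, Rela, Relb, Nfkb2, Nfkbid, Nfkb1, Nfkbiz, Nfkbie and Rel. Nfkbia stood apart from the next, Rela from Relb, Nfkb1 from Nfkbiz and Nfkbie from Rel, while the ranges of the other neighbours overlapped. In the mid liver Nfkbid moved from rank 6 to rank 2 and Tnfaip3 from rank 2 to rank 7.

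**Figure D2:**
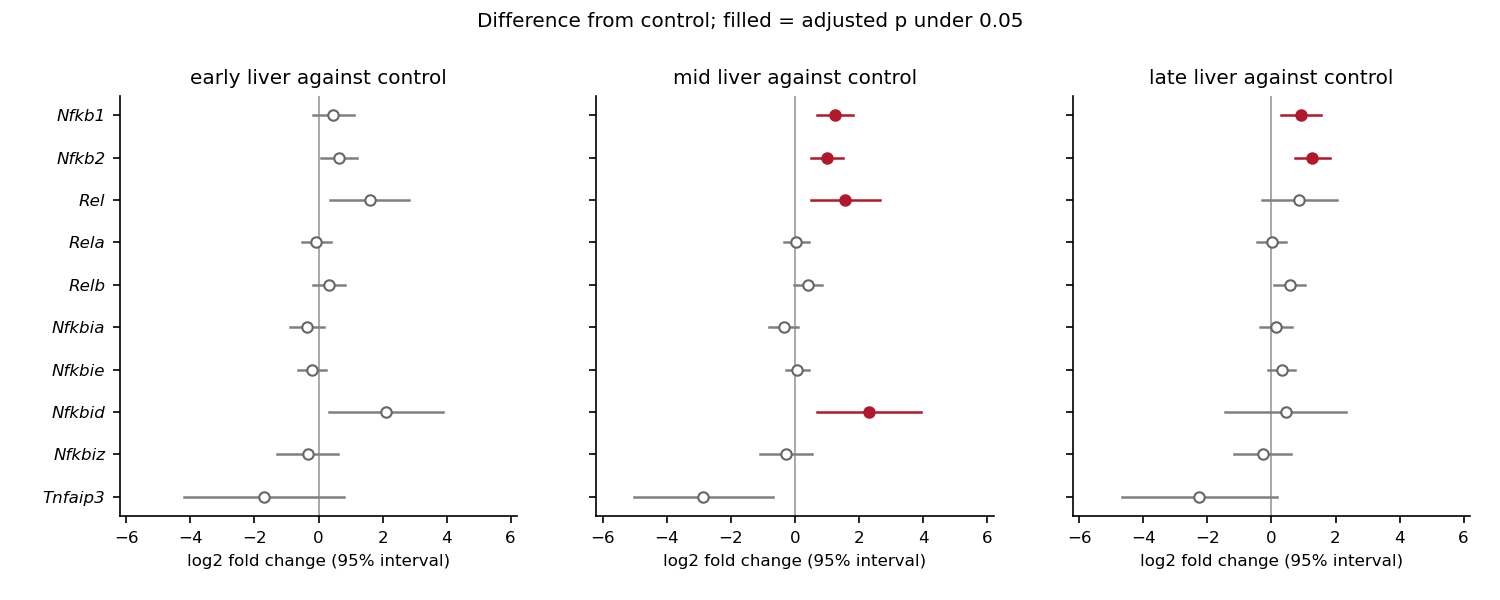
Log2 fold change of each of the 10 genes from control in the early, mid and late liver, with 95% intervals from the edgeR fit; filled red points passed an adjusted p of 0.05. The filled points are Nfkb1, Nfkb2, Rel and Nfkbid at mid and Nfkb1 and Nfkb2 at late, and the intervals of Nfkbid and Tnfaip3 are the widest.

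Of the inhibitors, Nfkbid was the one called. It encodes IκBNS, a nuclear IκB protein known to be induced by T cell receptor signals. It was at 55.1, 43.7 and 66.8 CPM in the controls and at 244, 401 and 168 CPM in the mid liver, with no overlap. In the late liver it was at 139.8 and 34.5 CPM, 1 library above and 1 below all controls. The log2 difference was 2.31 at mid (SE 0.71, adjusted p = 0.0421, edgeR) and 0.44 at late (SE 0.82, adjusted p = 0.691). Late against mid gave -1.87 (SE 0.87, adjusted p = 0.978).

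Nfkbiz, which encodes the other nuclear inhibitor of the list, IκBζ, split by title series. The TG libraries gave 97.2 CPM in the control against 39.6 CPM in the mid and 35.3 CPM in the late liver. The XC libraries gave 78.1 and 67.2 CPM in the controls against 99.7 and 86.5 CPM at mid and 109 CPM at late. The direction was thus opposite in the series, and the joint differences of -0.27 at mid (SE 0.36, adjusted p = 0.581, edgeR) and -0.28 at late (SE 0.40, adjusted p = 0.601) did not pass.

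The classical inhibitors of the list, Nfkbia and Nfkbie, passed in no comparison. Nfkbia was the most abundant member per length, at 477 ± 60.6 TPM (SD, n = 3 controls). Its level was 656, 455 and 408 CPM in the controls, 377, 438 and 361 CPM at mid and 519 and 600.0 CPM at late, with overlap at both times. The 95% interval of its log2 difference from control was -0.81 to 0.10 at mid and -0.37 to 0.65 at late. Nfkbie, which encodes IκBε, ranged from 35.8 to 65.4 CPM over all 14 libraries, and its interval was -0.29 to 0.44 at mid and -0.10 to 0.73 at late.

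Tnfaip3 encodes A20, the ubiquitin editor that shuts down signalling upstream of the IκB kinases, and it had the widest range of the members. It was at 746 and 1375 CPM in the day 0 controls and at 250.6 CPM in the day 18 control. In the mid liver it was at 29.8, 258 and 253 CPM and in the late liver at 39.1 and 486 CPM. The TG liver libraries thus lay far below all others, while the XC mid liver libraries lay beside the day 18 control. The log2 difference was -2.87 at mid (SE 0.94, adjusted p = 0.0525, edgeR) and -2.26 at late (SE 1.05, adjusted p = 0.126). With the day 18 library as the sole control, the estimates changed sign, to 0.11 at mid (adjusted p = 0.91) and 0.81 at late (adjusted p = 0.345). With the day 0 controls alone Tnfaip3 was called lower, by -3.69 at mid (adjusted p = 0.0224) and -3.04 at late (adjusted p = 0.0207), and DESeq2 also called it at both times (-2.85, adjusted p = 0.00433, and -2.24, adjusted p = 0.0489). The day 0 controls were also those with macrophage and erythroid RNA, and the TG liver libraries those with the most hepatocyte RNA. The part of either in the Tnfaip3 values was not tested.

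Each of the 6 calls was lost when at least 1 of the libraries was left out. With the day 18 library as the sole control, or with the XC series alone, no member passed, although the estimates for Nfkb1, Nfkb2, Rel and Nfkbid at mid stayed positive (0.90 to 2.08 and 0.93 to 2.34 on the log2 scale). Leaving out a single library left 0 members called at mid for control replicate 1, control replicate 2, mid liver replicate 1 or mid liver replicate 3, and 0 at late for either late liver replicate. It left 2 at mid without mid liver replicate 2, and 1 at late, Nfkb2, without control replicate 1 or control replicate 2. Without control replicate 3, Rel and Nfkbid at mid and Nfkb1 at late lost their calls. Without control replicate 2, 0 of all genes were called at mid as well. No share of all genes is given here for the other fits, so the lost calls are no result about the members. For Nfkb2 at late the estimate was 1.15 without late liver replicate 1 (adjusted p = 0.0683, edgeR) and 1.42 without replicate 2 (adjusted p = 0.0665).

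In the early liver the 2 libraries stood apart. Rel was at 231 CPM in replicate 1 and 53.6 CPM in replicate 2, Nfkbid at 362 and 71.5 CPM, Nfkb2 at 219 and 125 CPM, and Nfkb1 at 121 and 55.3 CPM. Replicate 1 thus had the highest Rel of all 14 libraries and an Nfkbid level within the mid liver range, whereas replicate 2 lay nearer the controls. In replicate 2, Rel, Nfkbid and Nfkb2 were still above all controls, whose highest values were 45.0, 66.8 and 115 CPM. Nfkb1 there was below all controls, whose lowest value was 60.3 CPM. The same division held for Il2, the T cell growth factor gene, at 31.9 and 0.815 CPM. By edgeR 0 of 10 members passed in the early liver against control, beside 0% of all genes. At an unadjusted p under 0.05 there were 3 members, and DESeq2 called 2, Rel and Nfkbid. The 0% is the edgeR share at the adjusted threshold. No share of all genes is given for the unadjusted and DESeq2 counts, so they are no result about the members. The largest edgeR estimates were 2.11 for Nfkbid (SE 0.78, adjusted p = 0.412) and 1.60 for Rel (SE 0.55, adjusted p = 0.41). Without replicate 2 a single early liver library remained, and the calls of that fit are not given.

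Cells from the spleens of the leukemia-bearing mice, and undivided cells, lay closer to the controls. Rel was at 37.9 and 32.6 CPM in the early spleen, 61.4 CPM in the mid spleen and 45.5 CPM in undivided cells. Nfkbid was at 95.4 and 49.7 CPM in the early spleen, 89.1 CPM in the mid spleen and 74.4 CPM in undivided cells. Nfkb2 was at 123 and 98.4 CPM in the early spleen, 126 CPM in the mid spleen and 118 CPM in undivided cells. In the mid spleen and in undivided cells, Rel, Nfkbid and Nfkb2 thus lay above all controls. The share of all genes that did so is not given. Nfkb1 was at 79.0 CPM in undivided cells and 81.6 CPM in the mid spleen, inside the control range of 60.3 to 105 CPM. In the early spleen Nfkb1 was at 57.5 and 47.2 CPM, below all controls, as was Nfkbia at 330 and 319 CPM. By edgeR 0 of 10 members passed against control in the early spleen (0% of all genes called), in the mid spleen (0.00647%) and in undivided cells (0%), and DESeq2 also called none. At an unadjusted p under 0.05 there was 1 member in the early spleen, Nfkbia (-0.58, SE 0.24, adjusted p = 0.77, edgeR), and 0 in the others. The mid spleen and undivided groups are single libraries, and the fit assumed that they vary like the rest. No share of all genes is given for the unadjusted or DESeq2 counts.

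Liver and spleen were compared directly at matched times. The percentages in this paragraph are shares by edgeR at the adjusted threshold. Unadjusted and DESeq2 counts stand without a share of all genes and are no result about the members. In the early liver against the early spleen 0 members passed (0% of all genes, 3 members at an unadjusted p under 0.05, 1 called by DESeq2, Rel), with the largest estimate for Rel, 2.01 (SE 0.59, adjusted p = 0.544, edgeR). In the mid liver against the mid spleen 0 members passed (0.00647% of all genes, 2 members at an unadjusted p under 0.05, 0 by DESeq2). There Nfkb1 and Nfkb2 differed by 0.89 (SE 0.38) and 0.80 (SE 0.34) on the log2 scale, each with an adjusted p of 0.711. Late against mid liver gave 0 calls (0% of all genes, 0 members at an unadjusted p under 0.05, 0 by DESeq2), and late liver against undivided cells gave 0 (0% of all genes, 1 member at an unadjusted p under 0.05, 1 by DESeq2). That member was Nfkb2 in both, at 1.18 (SE 0.37, adjusted p = 0.11, edgeR).

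Within Nfkb2, the estimated transcripts moved unequally. The gene spans chr19:46304320-46312385 on GRCm38, and its 2 most abundant coding transcripts differ at both ends and in exon number. Nfkb2-206 has 22 exons and ends at base 46312385, and Nfkb2-201 has 23 exons and ends at base 46312022. Which of these differences the assignment of reads rests on was not tested. Nfkb2-206 starts at the first base of the gene, and Nfkb2-201 starts 424 bases downstream, 7 bases from the first start in RefSeq. The share of Nfkb2 counts assigned to Nfkb2-201 was 3.40, 17.8 and 27.6% in the controls, 22.6% in undivided cells, 28.5 and 33.8% in the early spleen and 34.2% in the mid spleen. It was 44.5 and 17.8% in the early liver, 57.5, 40.9 and 52.1% in the mid liver and 58.9 and 47.8% in the late liver, so mid and late liver lay above every spleen library. In CPM, Nfkb2-201 went from 18.3 ± 14.4 in the controls (SD, n = 3) to 103 ± 5.14 in the mid liver (SD, n = 3) and 133 ± 20.1 in the late liver (SD, n = 2). Nfkb2-206 stayed at 58.9 ± 3.32, 62.0 ± 9.10 and 67.5 ± 1.16 in the same groups. The shares are kallisto's assignment of reads that the transcripts largely have in common, they carry no error of their own in the totals used here, and they were described with no test.

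**Figure D3:**
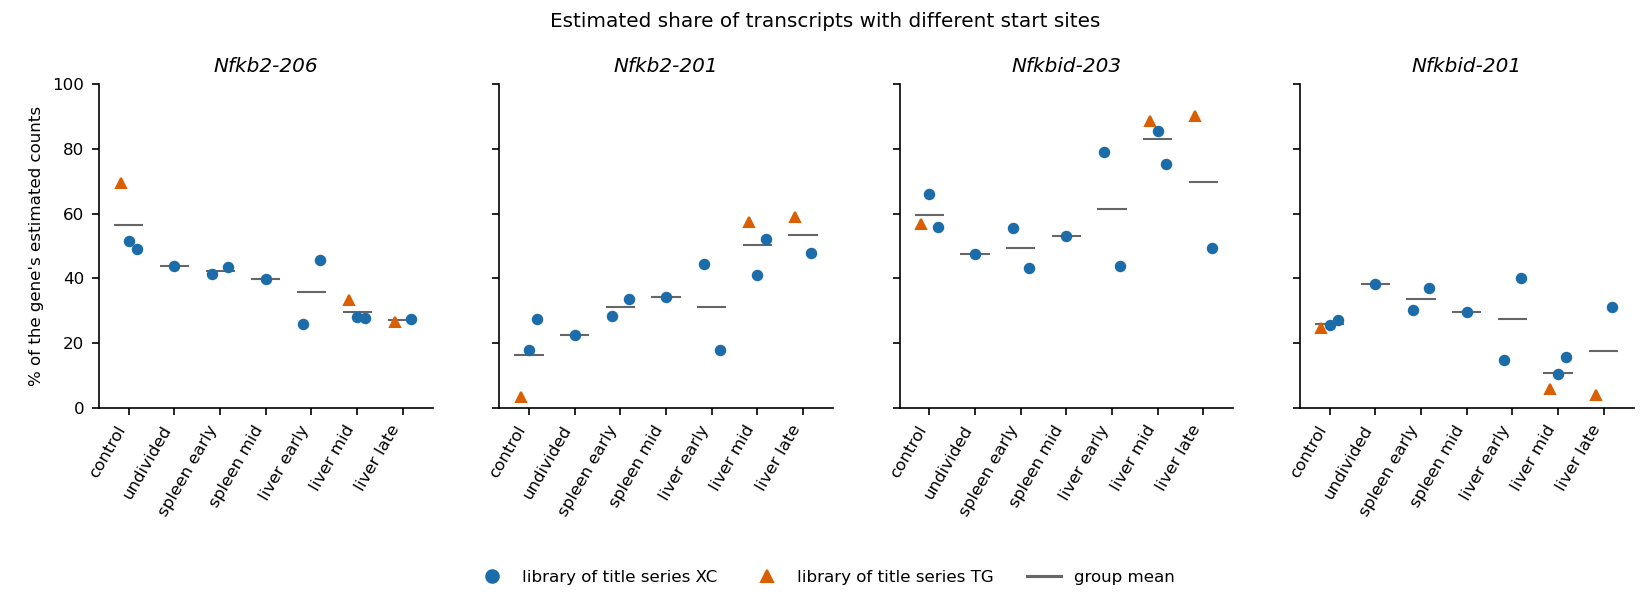
Share of a gene's estimated counts assigned to transcripts with different start sites, for Nfkb2 and Nfkbid (y axis in percent, 0 to 100), by group and title series, with a line at the group mean. Nfkb2-201 is at 40.9 to 58.9% in the mid and late liver against 3.40 to 34.2% in all spleen libraries, and Nfkb2-206 is at 26.6 to 33.4% against 39.8 to 69.4%. The Nfkb2 pair also differs at the 3′ end and in exon number.

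Nfkbid showed a like division. Nfkbid-203 starts 1543 bases upstream of Nfkbid-201 on chromosome 7. Nfkbid-203 took 55.7 to 66.1% of the gene's counts in the controls and 75.3 to 88.6% in the mid liver, with no overlap. In the late liver it took 90.2% in the TG library, where Nfkbid was high, and 49.3% in the XC library, where Nfkbid was low. Early liver replicate 1, with high Nfkbid, gave 79.1% and replicate 2 gave 43.95%, and the spleens of leukemia-bearing mice and undivided cells gave 43.2 to 55.5%.

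Promoter sequence was searched for the 10-base κB consensus on both strands, since several members are textbook κB targets. RefSeq windows of 250 bases before to 50 bases after a start (GRCm38.p6) were found for 7 of the 10 members, in 12 windows. Nfkb1, Relb and Nfkbiz had no entry. A match was present in 8 of the 12 windows, from 6 genes (Nfkb2, Rel, Nfkbia, Nfkbie, Nfkbid and Tnfaip3), against 8.46% of all 32851 windows. Overlapping matches were counted separately, and windows of 1 gene can overlap. The first Nfkb2 window held 3 matches. They begin 39, 38 and 11 bases before the RefSeq start, and the third reads GGGGCTTTCC. Capitals mark the matches in the stretches below, written 5′ to 3′ on the gene's strand. They are shown for members called higher in the liver (Nfkb2, Rel and Nfkbid) and for a pair that was not (Nfkbia and Tnfaip3). The Nfkb2 stretch holds the first 2 of its 3 matches, which overlap. The capitals in the Rel stretch are 2 overlapping matches. The Tnfaip3 window held 2 matches, and its stretch shows only the one nearer the start.
Nfkb2, chr19:46304689-46304718, plus strand, inside the first exon of Nfkb2-206: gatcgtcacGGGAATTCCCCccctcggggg
Rel, chr11:23770991-23771121, minus strand, upstream of the gene: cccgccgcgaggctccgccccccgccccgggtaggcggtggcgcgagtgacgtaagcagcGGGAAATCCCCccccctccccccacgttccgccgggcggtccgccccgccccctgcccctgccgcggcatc
Nfkbid, chr7:30422156-30422294, plus strand, in an intron of Nfkbid-203 and upstream of a further RefSeq start: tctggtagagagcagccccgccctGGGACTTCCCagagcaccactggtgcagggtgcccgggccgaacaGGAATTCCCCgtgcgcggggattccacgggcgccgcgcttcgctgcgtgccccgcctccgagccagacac
Nfkbia, chr12:55492648-55492767, minus strand, upstream of the gene: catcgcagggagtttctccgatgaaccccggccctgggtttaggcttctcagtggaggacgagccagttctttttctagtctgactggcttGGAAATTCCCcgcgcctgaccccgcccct
Tnfaip3, chr10:19015411-19015440, minus strand, in an intron of Tnfaip3-203 and next to a RefSeq start: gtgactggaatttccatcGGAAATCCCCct
Matches were present in members called and in members not called. Rela, which was not called, held none in its window, and neither did the windows at the starts of Nfkbid-203 and Nfkbid-201. A match describes letters in these windows and not a site in use.

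The genes around NF-κB were counted from lists of the pathway's parts. These lists were chosen with earlier results of these data known, so their counts are descriptions. The counts stand beside the 17.5% of all genes higher and 11.8% lower at mid and the 19.9% higher and 14.3% lower at late, and the list medians beside all-gene medians of -0.07 and -0.04. Of the receptors that feed it, 8 of 9 were tested. At mid 5 were higher and 1 lower, and at late again 5 higher and 1 lower, with median log2 fold changes of 0.81 and 1.17. Tnfrsf4 (OX40), a co-stimulatory receptor, was higher by 5.36 at mid (SE 0.81, adjusted p = 0.0122, edgeR) and by 6.64 at late (SE 0.88, adjusted p = 0.00452). Tnfrsf9 (4-1BB) reached 409.8 to 909 CPM in the mid and late liver against 3.34 to 14.7 CPM in the controls, and Tnfrsf1b, the second TNF receptor, was higher by 2.46 at late (SE 0.30). Tnfrsf25 (DR3) was the receptor that was lower, at 2.04 and 6.36 CPM in the late liver against 28.5 to 51.8 CPM in the controls.

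Among the kinases of the pathway and their partner proteins, calls were toward lower levels. Of 10 genes, 0 were higher, 4 lower and 6 not called at mid, and 0 were higher, 6 lower and 4 not called at late, with medians of -0.30 and -0.60. Ikbkb, the IκB kinase that releases the classical dimers, was at 291, 382 and 391 CPM in the controls and at 91.7 and 148 CPM in the late liver (-1.49, SE 0.29, adjusted p = 0.00738, edgeR). Map3k14 encodes NIK, the kinase that starts p52 formation from the Nfkb2 product, and it was lower at late by -1.60 (SE 0.41, adjusted p = 0.0171) while Nfkb2 itself was higher. At late Ikbke was lower by -1.75 (SE 0.37), and Prkcq, which encodes the kinase PKCθ that acts close to the T cell receptor, by -0.93 (SE 0.29, adjusted p = 0.0343, edgeR). Of 12 adaptors and ubiquitin ligases, 1 was higher and 2 lower at mid and 1 higher and 4 lower at late, with medians of -0.27 and -0.25. Ube2n, the ubiquitin-conjugating enzyme that works with TRAF6, was the higher one (1.30, SE 0.29, at late), and Traf6 (-1.02, SE 0.25), Birc2 (-0.91, SE 0.31) and Rnf31 (-0.80, SE 0.26) were among the lower ones.

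The other brakes of the pathway were mixed. Of 14, 5 were higher and 2 lower at mid and 4 higher and 3 lower at late, with medians of 0.20 and 0.22. The A20-binding proteins Tnip3 (3.76, SE 0.73) and Tnip2 (1.07, SE 0.32), the deubiquitinase gene Otud7b (1.36, SE 0.24) and Commd1 (1.53, SE 0.31) were higher at late, while Tnip3 did not exceed 8.14 CPM in any library. This list also holds Nfkbib, which encodes the further classical inhibitor IκBβ. Nfkbib was at 73.1, 55.6 and 50.2 CPM in the controls, 227, 121 and 96.0 CPM in the mid liver and 206 and 77.9 CPM in the late liver, with no overlap. It was higher at mid (1.22, SE 0.35, adjusted p = 0.0297, edgeR), and the late difference was 0.95 (SE 0.39, adjusted p = 0.0867).

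Of 18 textbook NF-κB targets, 12 were higher and 2 lower at mid and 8 higher and 3 lower at late, with medians of 1.69 and 1.22. The cytokine gene Csf2 and the chemokine genes Ccl3 and Ccl4 were among the highest changes. Ccl3 was at 0.0974 to 3.23 CPM in the controls and at 183 to 623 CPM in the mid liver and 112 and 408 CPM in the late liver. Il2 was at most 0.0449 CPM in the controls, 68.6, 25.2 and 16.8 CPM at mid, and 19.9 and 0.596 CPM at late. The folds of Csf2 and Il2, at or near 0 in the controls, depend on the prior count and are not given. Irf1, which encodes an interferon response factor, was lower at both times, by -1.21 at mid (SE 0.29) and -1.56 at late (SE 0.34). Without scaling beyond the library total, the median of all genes moved to -0.28 at mid and -0.35 at late, and the counts for receptors (4 higher and 2 lower at both times), kinases (4 lower at mid and 6 at late) and targets (10 higher and 2 lower, then 8 higher and 4 lower) kept their directions. The median of the other brakes turned from 0.20 to -0.01 at mid and from 0.22 to -0.10 at late. In the XC series alone, or with the day 18 library as the sole control, 0 genes of these 3 lists were called, and their medians kept their signs.

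**Figure D4:**
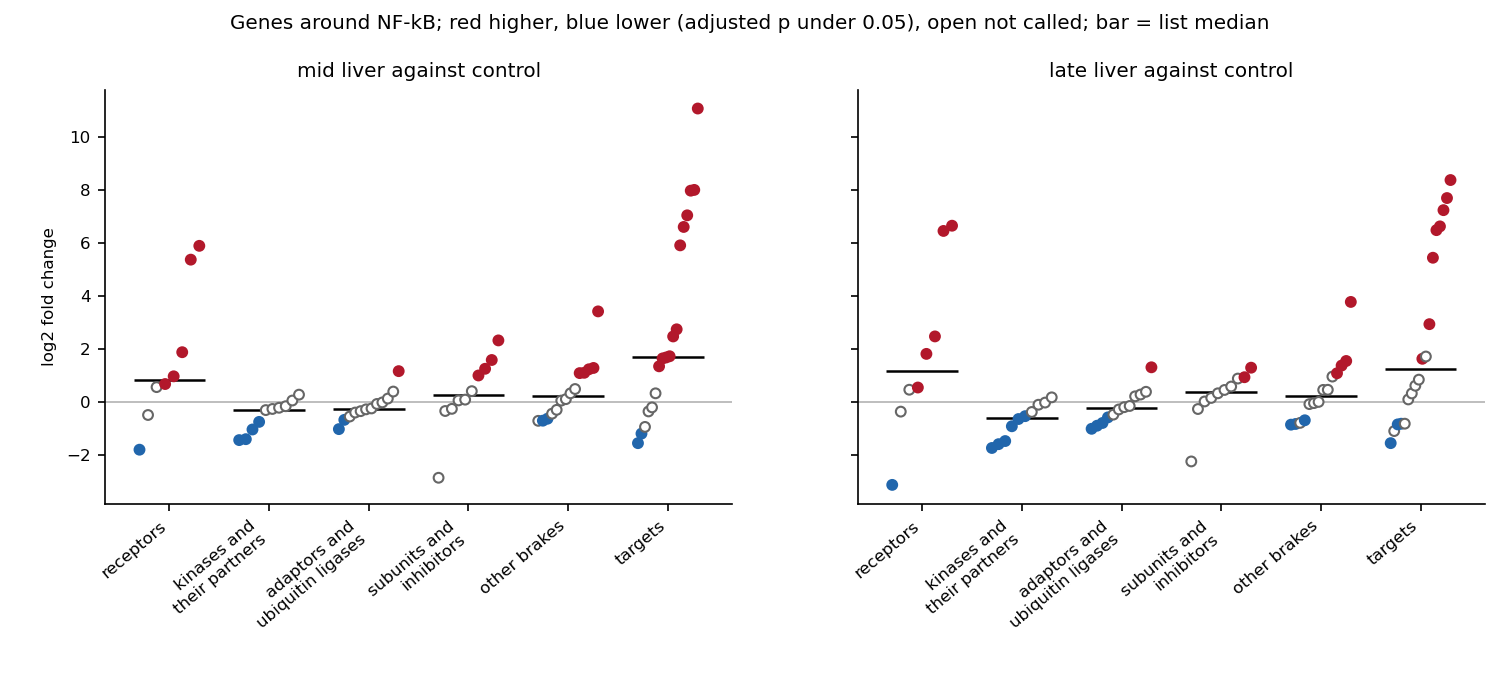
Log2 fold change from control of the genes in each pathway list in the mid liver (left) and late liver (right), with red points higher and blue points lower at an adjusted p under 0.05, open points not called and a black bar at the list median. Receptors and targets have medians above 0 (0.81 and 1.69 at mid), and the kinases and their partners below 0 (-0.30 at mid and -0.60 at late).

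The members were compared by their log2 CPM across the 14 low-input libraries. These values share library depth, title series and the same groups, and are given as descriptions. Nfkb2 was most like Relb (Pearson r = 0.91, and 0.88 over the 11 XC libraries) and was also like Nfkb1 (0.77 and 0.93) and Rel (0.75 and 0.92). Rela went with Nfkbie (0.82 and 0.72). Tnfaip3 ran against Nfkb1 (-0.74 and -0.48). The likeness of Tnfaip3 to Nfkbiz was 0.80 over all libraries and 0.11 within the XC series.

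**Figure D5:**
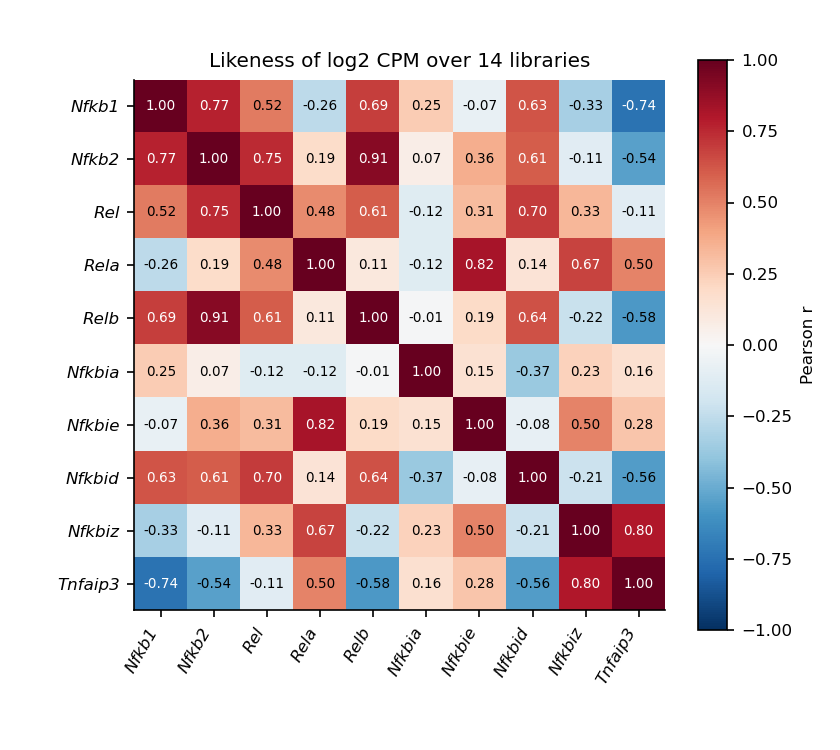
Pearson r of log2 CPM between each pair of the 10 genes over the 14 low-input libraries (color scale from -1 to 1). The highest value off the diagonal is 0.91 for Nfkb2 and Relb and the lowest is -0.74 for Nfkb1 and Tnfaip3.

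Among all genes with a mean log2 CPM of at least 5, the pattern most like that of Nfkb2 was that of Zap70, the proximal kinase of the T cell receptor (r = 0.98, and 0.99 over the 11 XC libraries), followed by Tnfsf8, the CD30 ligand gene (0.97). Rel was most like Tfrc, which encodes the transferrin receptor (0.96), and then Mapk6 (0.94). The nearest genes to Nfkb1 were Larp7 (0.99) and the tubulin gene Tuba1c (0.97), those to Nfkbid were Atad3a and Ppan (0.95 each), and those to Rela were Cnot2 and Sidt2 (0.94 each). For Relb they were Nfkb2 (0.91) and Zap70 (0.90), for Nfkbie Jak3 and Ppp2r5c (0.94 each), and for Tnfaip3 Sik1 (0.96) and Arhgap31 (0.95). Nfkbiz was nearest to Rab27a (0.91, and 0.79 in XC) and Csrnp1 (0.88, and 0.68 in XC), and Nfkbia had the weakest nearest genes, Lamp1 (0.86) and Paip2 (0.76).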

How the data were processed

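RNA was measured in 26 sequencing runs of 15 libraries. Per the labels and the study's methods, the authors mapped reads to the mouse genome (mm10, GRCm38) with kallisto and deposited, for each run, estimated counts and TPM per transcript, and they tested with DESeq2. The kallisto version and annotation are not given in the sources used here. Transcripts were matched to the GENCODE M21 annotation (98.3% of transcripts, at least 99.0% of counts), estimated counts were summed per gene and over the runs of a library and rounded, and deposited TPM was summed per gene and used to compare levels between genes. The 15465 genes that reached 10 counts in 6 or more of the 14 low-input libraries were fitted with edgeR 4.0.16 (R 4.3.3; quasi-likelihood, robust, TMM, factors 0.723 to 1.22) on group and title series, with Benjamini-Hochberg adjustment and a threshold of 0.05. Residual degrees of freedom were 6. The title series was taken as the study's batch. An oligo-dT library was left out of tests. Libraries of 1 group differed beyond counting noise in every pair. The genes, pathway lists and alternatives (DESeq2 1.42.0, other scaling, filters and library sets) were chosen with earlier results of these data known. Named were all 10 members, per list at most the 4 called genes that changed most in the late liver, and the 2 genes most alike per member. Cd3e, Cd3g, Alb, Adgre1, Nfkbib and Irf1 were named in addition after their values were seen. Some genes of the pathway are not reported here. The code was tested on simulated data.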

Additional observations from a re-analysis of the deposited data

Results flagged for a closer look

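A single day 0 control library was made with oligo-dT priming and regular sequencing and is part of no comparison. On the scale of CPM of the library total, 3 members exceeded all 3 low-input controls there. Nfkb1 was at 179 CPM against 62.4 to 108 CPM in the low-input controls. Rel was at 60.8 CPM against 35.7 to 46.6 CPM, and Nfkbiz at 122 CPM against 73.8 to 99.9 CPM. Another 6 members were below all 3 low-input controls: Nfkb2 at 65.4 CPM (controls 92.9 to 127), Rela at 128 CPM (176 to 241), Relb at 45.9 CPM (75.4 to 89.5), Nfkbia at 274.5 CPM (449 to 674), Nfkbie at 31.5 CPM (40.4 to 59.2) and Nfkbid at 41.3 CPM (45.2 to 73.3). Tnfaip3, at 1303 CPM, lay within the control range. The oligo-dT library is 1 library with no replicate, made by a different protocol. The share of all genes outside the control range there was not computed, so these counts are no result about the members.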

How the results depend on the processing

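No paired analysis was possible because the labels give no replicate numbers, and those used here follow accession order and name a library without pairing it. The number of members called at late (2) became 3 with DESeq2 (Tnfaip3 added) or with the 2 groups' libraries alone (Rel added), 1 without the series term, with counts scaled from TPM or with no scaling, 4 with no low-count filter and 0 in the XC series alone or with the day 18 control alone (the last and no scaling were chosen after seeing the data), and it was 0 to 2 with 1 library left out. At mid (4) it became 2 without the series term and 0 in the XC series alone or with the day 18 control alone, and 0 to 3 with 1 library left out. For comparisons with 0 calls, DESeq2 gave 2 in the early liver and 1 each in early liver against early spleen and late liver against undivided. No low-count filter gave 3 in the early liver, 1 each in the early spleen, mid spleen and undivided cells, 2 in early liver against early spleen, 3 in mid liver against mid spleen, and 1 each in late against mid liver and late liver against undivided. With 1 library left out, early liver and early liver against early spleen did not stay at 0, though such fits can rest on a single library of a group. The other comparisons stayed at 0. Over all genes, 5291 were called at late, which became 2936 without the series term and 6 in XC alone. At mid 4525 were called, which became 1764 and 0. With the day 18 control alone there were 0 at both times, and with 1 library left out the lowest count was 0 at both (without late liver replicate 2, and without control replicate 2). Of 1660 recomputed member differences, 1471 kept direction and call, 49 lost and 35 gained a call, and 105 that were not called changed sign, among them Nfkbid at late in the XC series (-0.69) and Tnfaip3 at mid with the day 18 control (0.11). No called value changed sign. The causes were not tested. Apart from the all-gene counts given in this paragraph, the counts of members under other settings stand without a matching share of all genes. This holds for mid and late as for the comparisons with 0 calls, so these counts are no result about the members. Late liver against undivided with these libraries alone could not be fitted.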

Other observations

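The estimated transcripts of Nfkb1 split by title series. Nfkb1-207, annotated as a target of nonsense-mediated decay, took 34.9% of the gene's counts in the TG control and 52.1 and 53.1% in the TG liver libraries, against 13.0 to 30.9% in all XC libraries. All protein-coding transcripts of Nfkb1 together took 19.5 to 26.9% in the TG libraries and 28.7 to 59.5% in the XC libraries. Nfkbia-202, a transcript with a retained intron, took 44.0 to 46.1% of Nfkbia counts in the TG libraries and 32.7 to 39.2% in the XC libraries. Rel has a single transcript in the table, which took 100% of its counts.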
